A study of Mus musculus with 14 samples.

Results

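Chchd2 and its relatives are nuclear genes for small mitochondrial proteins with a coiled-coil-helix-coiled-coil-helix (CHCH) domain. The members described here were the 8 mouse genes Chchd1, Chchd2, Chchd3, Chchd4, Chchd5, Chchd6, Chchd7 and Chchd10, chosen by their symbols. All 8 were present in both deposited tables, where Chchd2 is Entrez gene 14004, Chchd10 103172, Chchd1 66121 and Chchd7 66433, among 18507 genes in either table. RNA had been sequenced from mouse oocytes at the germinal vesicle (GV) stage, arrested in the first meiotic prophase, and from ovulated oocytes. The control group, labelled WT, carried the floxed alleles alone (Mff fl/fl), and the group labelled CKO carried Mff fl/fl with Gdf9-Cre, so both groups share the floxed Mff locus and only the second has the Cre transgene. Gdf9 promoter activity confines this Cre to oocytes, from early follicles on. There were 4 libraries per genotype at the GV stage and 3 per genotype after ovulation. Age of the mice, and the number of oocytes and animals behind a library, are not stated in the sources used here, and p-values therefore reflect the spread among these libraries alone, which may be technical.

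CHCH proteins are made in the cytosol and enter the intermembrane space of mitochondria, where paired cysteines are oxidised into disulfide bonds that hold a helical hairpin together. CHCHD4 (MIA40) is the oxidoreductase that traps and oxidises these precursors, and GFER re-oxidises it. Fully grown oocytes hardly transcribe, so their mitochondrial proteins are supplied from stored maternal mRNA, much of which is degraded during meiotic maturation. MFF, the product of the targeted gene, is the outer-membrane receptor that recruits the fission GTPase DRP1.

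The sequence that defines the family is a pair of cysteine motifs, each with 9 residues between its cysteines. In a coding transcript of each of the 8 members, cysteine codons of this spacing were found as an adjacent pair of motifs. The windows of Chchd2 and its closest relative Chchd10, and of the 2 further members that passed the test in ovulated oocytes, are shown because the results turn on these genes. Each runs 5′ to 3′ along the coding strand of GENCODE transcripts on GRCm38, and capitals mark the cysteine codons of the motifs.
Chchd2: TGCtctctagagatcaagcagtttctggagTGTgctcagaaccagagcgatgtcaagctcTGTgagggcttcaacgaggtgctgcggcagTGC
Chchd10: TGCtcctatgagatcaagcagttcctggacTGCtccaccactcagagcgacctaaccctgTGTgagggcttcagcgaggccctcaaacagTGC
Chchd1: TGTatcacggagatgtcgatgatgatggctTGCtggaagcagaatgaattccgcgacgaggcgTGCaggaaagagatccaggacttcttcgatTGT
Chchd7: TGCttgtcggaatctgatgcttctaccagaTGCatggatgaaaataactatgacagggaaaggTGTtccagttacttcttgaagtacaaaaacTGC

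The Chchd2 window lies in exon 3 of its transcript at chr5:129882442-129882534 on the minus strand, and the Chchd10 window in exon 4 at chr10:75937349-75937441 on the plus strand. In both genes 9 codons separate the inner cysteines, against 10 in Chchd1, Chchd3, Chchd5, Chchd6 and Chchd7 and 12 in Chchd4. Chchd2 and Chchd10 matched at 66 of the 93 bases (71.0%). The next closest pair was Chchd3 and Chchd6, with 55 of 96 bases (57.3%), and the other pairs of equal length matched at 31.2% to 41.7%. The Chchd1 window lies in exon 2 at chr14:20703298-20703393 on the plus strand, and that of Chchd7, on chromosome 4, spans exons 2 and 3. The coding sequences are short, from 258 bases in Chchd7 to 822 in Chchd6 with the stop codon, and 462 in Chchd2.

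Library totals ranged from 26575593 to 28847424 estimated counts. Mff, which checks the labels, measured 402 to 831 CPM in GV WT libraries and 27.0 to 40.8 in GV CKO libraries, and 355 to 844 in ovulated WT against 38.4 to 66.7 in ovulated CKO libraries. The 10 oocyte markers were all detected in every group, with summed levels of 16654 to 33537 CPM. Of 15 granulosa and cumulus markers, 13 were in the GV table and 11 in the ovulated table. Their summed level was 52.1 to 98.2 CPM in GV WT, 46.6 to 125 in GV CKO, 93.5 to 108 in ovulated WT and 72.3 to 92.7 in ovulated CKO libraries. Cyp19a1 had the highest mean of these markers in each group, with 40.2 CPM in GV CKO, where the median sum was 95.9. Ptx3 was at 0 in both WT groups and Inhbb and Tnfaip6 in ovulated CKO. The summed level was lower in every ovulated CKO library than in any ovulated WT library, and its part in the results below was not tested. Blood, immune and stromal markers, 10 in the GV and 5 in the ovulated table, summed to 21.5 to 43.3 CPM in GV WT, 23.3 to 41.4 in GV CKO, 79.7 to 133 in ovulated WT and 52.1 to 103 in ovulated CKO, mostly from Pecam1. Ptprc was at 0 in GV WT and Hba-a1 in ovulated CKO. On the first principal component of the GV table, which held 43.8% of the variance, WT replicate 2 and CKO replicates 1 and 2 stood apart from the other 5. In the ovulated table it held 50.3% and separated the genotypes, with CKO replicate 2 farthest from the WT libraries.

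Chchd2 was the most abundant family transcript in GV oocytes of both genotypes and in ovulated CKO oocytes, but not in ovulated WT oocytes. Levels of different genes were compared as the deposited FPKM, which is scaled to transcript length. CHCHD2 lies in the intermembrane space and has been tied to cytochrome c oxidase and to the spacing of cristae, and mutations in the human gene occur in familial Parkinson's disease. Its level was 729 ± 19.5 FPKM in GV WT (SD, n = 4) and 804 ± 134 FPKM in GV CKO (SD, n = 4), ranks 143 and 141 among the 18194 genes of that table by mean FPKM. It was 11.5 ± 4.95 FPKM in ovulated WT (SD, n = 3), rank 3951 of 16509, and 307 ± 235 FPKM in ovulated CKO (SD, n = 3), rank 331.

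Of the FPKM summed over the family, Chchd2 made up 71.6% to 82.7% in the GV WT libraries and 65.9% to 80.0% in the GV CKO libraries. It made up 16.5% to 29.4% in the ovulated WT libraries and 66.6% to 75.1% in the ovulated CKO libraries, so the ovulated groups did not overlap. The Chchd2 level exceeded that of the next member in every library of GV WT, GV CKO and ovulated CKO. In ovulated WT oocytes the order of mean levels was Chchd1, Chchd2, Chchd3 and Chchd6, at 16.2, 11.5, 10.0 and 6.11 FPKM, and neighbours in that order overlapped. Chchd5 and Chchd4 were the lowest members in each group, at 0.737 and 0.13 FPKM in ovulated WT.

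**Figure D1:**
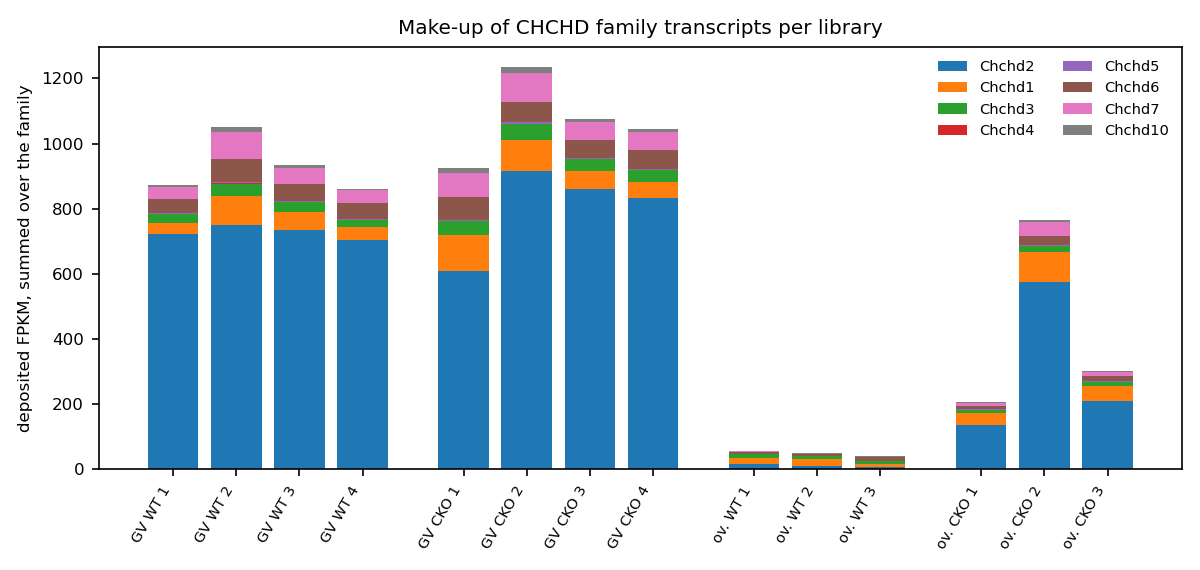
Deposited FPKM of the 8 family members, stacked per library from 0, for GV WT, GV CKO, ovulated (ov.) WT and ovulated CKO libraries. The Chchd2 segment makes up at most 29.4% of a bar in ovulated WT and at least 65.9% in the other groups.

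In GV oocytes the genotypes were not told apart by any member of the family. Levels within a stage are given as CPM, counts scaled to the library size after trimmed-mean normalisation (TMM), and listed in the order of the replicate numbers. Chchd2 measured 622, 358, 521 and 580 CPM in the WT libraries and 297, 556, 663 and 599 CPM in the CKO libraries. The ranges overlapped, and the lowest libraries, WT replicate 2 and CKO replicate 1, were among those that stood apart on the first component. The log2 fold change, CKO minus WT, was 0.02 (SE 0.29, adjusted p = 0.981 by edgeR's quasi-likelihood test).

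At this stage 0 of the 8 members passed the threshold of adjusted p under 0.05, where 0.0163% of the 12298 genes tested did. At an unadjusted p under 0.05 the count was also 0, where 6.66% of genes passed, and with DESeq2 at the adjusted threshold it was 0. Chchd10, which is known from human mutations in motor neuron disease and frontotemporal dementia, had the smallest p among the members. It measured 11.4, 13.2, 10.2 and 7.85 CPM in WT and 14.7, 19.95, 13.7 and 12.1 CPM in CKO, ranges that overlapped, with a log2 fold of 0.50 (SE 0.24, adjusted p = 0.746). All 8 fold changes were above 0, between 0.02 and 0.50 with a median of 0.23, where 52.9% of all genes tested were above 0 with a median of 0.03. Members are expressed in the same libraries and are not independent, and the sign of Chchd2, Chchd4 and Chchd5 changed when single libraries were left out.

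In ovulated oocytes Chchd2, Chchd1 and Chchd7 were higher in CKO than in WT. Of the 7 members that could be tested, 3 passed in this direction and 0 in the other, where 6.44% of 12010 genes passed as higher and 1.4% as lower. Chchd4 did not pass the filter on low counts. The median log2 fold change of the 7 was 1.41, beside -0.0010 over all genes tested.

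Chchd2 measured 12.0, 7.83 and 5.38 CPM in ovulated WT libraries and 95.5, 333 and 143 CPM in ovulated CKO libraries. The groups did not overlap, and CKO replicate 2 lay far above the other CKO libraries. The log2 fold change was 4.50 (SE 0.46, adjusted p = 0.000124), the 18th highest fold change and the 5th smallest p of the genes tested. Leaving out each library in turn gave 3.83 to 4.85, and the lowest of these came without CKO replicate 2.

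Chchd2 lies within the annotated span of Phkg1, a subunit gene of phosphorylase kinase on the same strand, and reads of overlapping genes may be split between them. Phkg1 measured 1.46, 0.753 and 2.27 CPM in ovulated WT and 0.669, 2.06 and 0.552 CPM in ovulated CKO. These ranges overlapped, and the Phkg1 log2 fold change was -0.44 (SE 0.71, adjusted p = 0.763). The annotation also names 1 pseudogene after Chchd2, and fractional counts occurred for Chchd2, Chchd3 and Chchd7, so their values carry the uncertainty of reads shared with other loci.

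CHCHD10 binds CHCHD2 and is its closest relative. Chchd10 measured 1.65, 2.03 and 3.50 CPM in ovulated WT and 1.80, 6.80 and 6.26 CPM in ovulated CKO. CKO replicate 1 lay within the WT range, and the log2 fold change of 1.05 (SE 0.54, adjusted p = 0.253) did not pass. Chchd10 overlaps Mmp11 on the opposite strand, and the library preparation is not stated to keep strand. On the scale of each stage's own fit, Mmp11 measured at most 0.206 CPM in a GV library and at most 0.156 CPM in an ovulated library.

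CHCHD1 is a protein of the small subunit of the mitochondrial ribosome. Chchd1 measured 7.38, 7.68 and 4.55 CPM in ovulated WT and 13.2, 28.6 and 16.6 CPM in ovulated CKO. No CKO library overlapped the WT libraries, and the log2 fold change was 1.57 (SE 0.38, adjusted p = 0.0193). This call was lost without CKO replicate 2 (log2 1.19, adjusted p = 0.113) and without WT replicate 3 (log2 1.37, adjusted p = 0.0855).

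CHCHD7 is the counterpart of yeast Cox23, which is needed there for assembly of cytochrome c oxidase. Chchd7 measured 2.47, 0.79 and 1.49 CPM in ovulated WT and 3.73, 15.8 and 5.26 CPM in ovulated CKO. Its groups did not overlap either, and the log2 fold change was 2.38 (SE 0.58, adjusted p = 0.0211). The call was lost without CKO replicate 2 (log2 1.51, adjusted p = 0.193), without WT replicate 2 (log2 2.05, adjusted p = 0.0768) and without WT replicate 3 (log2 2.33, adjusted p = 0.0901).

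The remaining tested members included both MICOS subunits. MICOS is the complex that holds cristae junctions together, and CHCHD3 (MIC19) and CHCHD6 (MIC25) are its CHCH subunits. Chchd6 measured 4.46, 3.84 and 9.88 CPM in ovulated WT and 10.6, 22.3 and 15.2 CPM in ovulated CKO. The lowest CKO library lay just above the highest WT library, and the log2 fold change of 1.41 (SE 0.42, adjusted p = 0.0557) missed the threshold. It passed with DESeq2 (adjusted p = 0.0138), with no filter on low counts (adjusted p = 0.0115) and on log2(FPKM + 0.1) with limma (adjusted p = 0.0426). It also passed with the replicate number as a block (adjusted p = 0.00934), without CKO replicate 1 (log2 1.63, adjusted p = 0.027) and without WT replicate 3 (log2 1.94, adjusted p = 0.0284). Without CKO replicate 2 the log2 fold change was 1.10, and over single omissions the adjusted p reached 0.24. Chchd6 did not pass with the length trend removed, nor without WT replicate 3 and CKO replicate 2 together.

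Chchd3 measured 16.1, 13.6 and 13.8 CPM in ovulated WT and 15.4, 21.6 and 19.6 CPM in ovulated CKO. The groups overlapped, and the log2 fold change was 0.38 (SE 0.30, adjusted p = 0.492). Chchd5, whose protein is less studied, measured 0.337, 1.35 and 0.875 CPM in WT and 0.422, 1.56 and 0.92 CPM in CKO. These ranges were nearly the same, with a log2 fold of 0.18 (SE 0.77, adjusted p = 0.919) whose sign depended on single libraries.

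Chchd4, which encodes the import oxidoreductase, was close to the limit of detection in ovulated oocytes. Its estimated counts were 0, 11 and 0 in the WT libraries and 0, 8 and 3 in the CKO libraries. A count of 0 in WT replicate 1, WT replicate 3 and CKO replicate 1 allows up to 0.11, 0.112 and 0.108 CPM of the library total, a limit of 3 counts that covers counting error only. A difference between genotypes was not detectable at this depth.

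Among the 7 tested members, Chchd1, Chchd2, Chchd6 and Chchd7 did not overlap between genotypes and were higher in CKO, where 15.8% of all genes tested did so. In each of the 8 members CKO replicate 2 was the highest CKO library and replicate 1 the lowest. This order held for 22.1% of all genes tested and for 71.4% of the 774 genes called higher in CKO.

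Short coding sequences were common among the genes called higher in ovulated CKO. Of 1000 tested genes with under 500 coding bases, 25.1% were called higher, against 8.96% of genes with 500 to under 1000 coding bases, 4.4% of those with 1000 to under 2000 and 2.12% of longer ones. Chchd1, Chchd2 and Chchd7 fall in the shortest class, as do Chchd5 and Chchd10. A second measure was the length implied by counts and FPKM, which is not the coding length. Genes under 1 kb by it took 10.6%, 10.9% and 14.0% of counts in the ovulated WT libraries and 12.0%, 16.2% and 16.8% in the ovulated CKO libraries. With the trend on this implied length removed, Chchd2 still passed. The log2 fold changes of Chchd1 and Chchd7 were then 0.35 (adjusted p = 0.596) and 1.24 (adjusted p = 0.156).

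**Figure D2:**
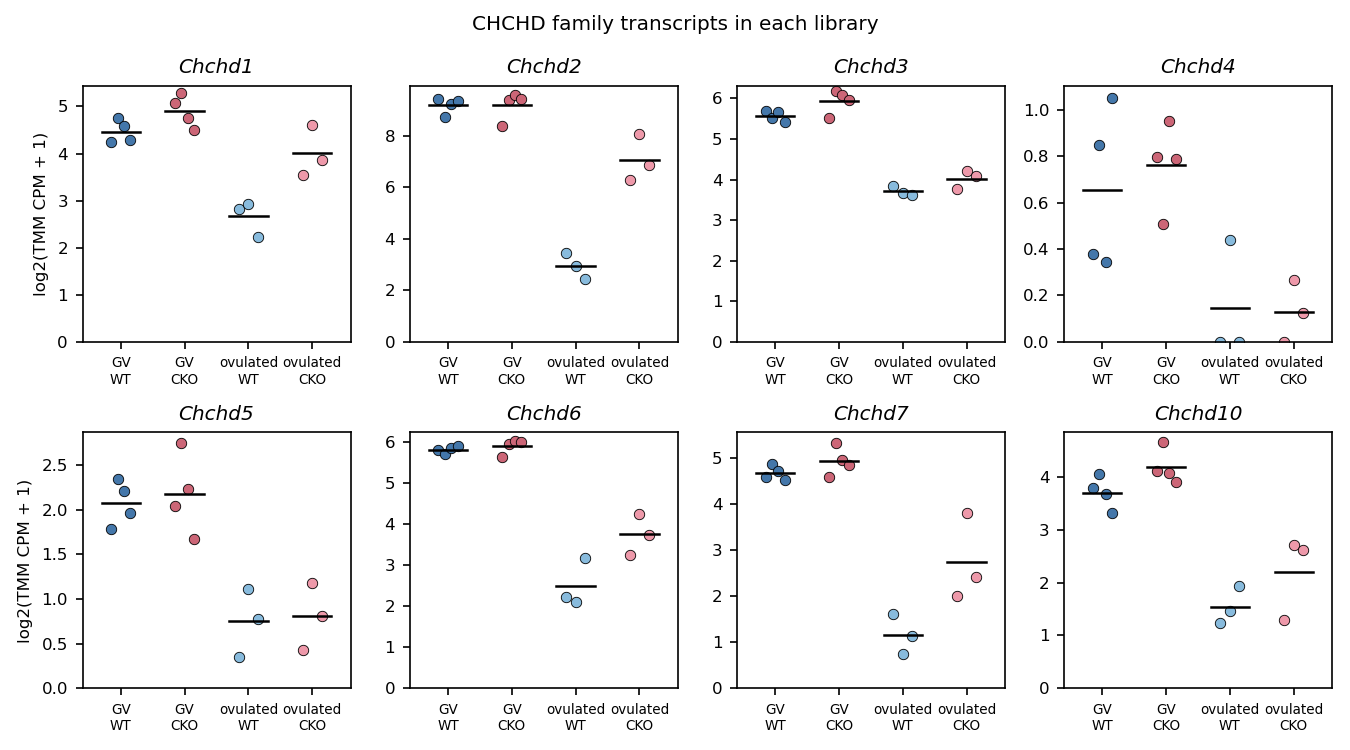
Level of each member as log2(TMM CPM + 1), in the fit over all 4 groups, with 1 point per library and a bar at the group mean; each panel has its own vertical axis from 0. The ovulated WT and ovulated CKO points of Chchd2 are separated, as are those of Chchd1, Chchd6 and Chchd7, and the GV groups overlap in every panel.

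**Figure D3:**
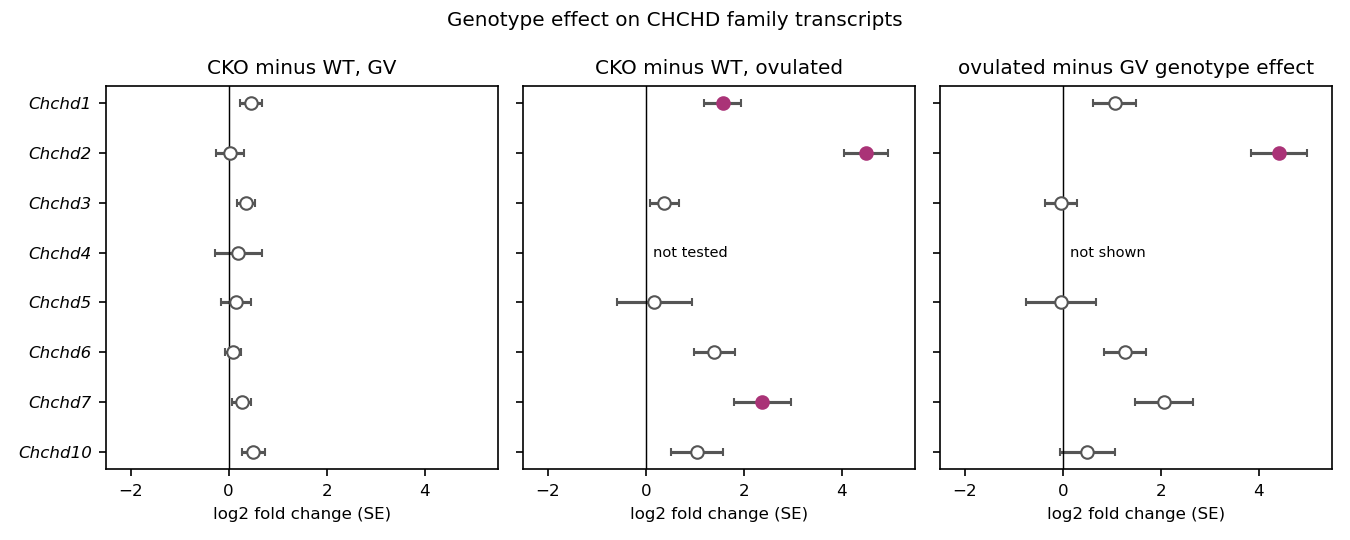
Log2 fold changes with SE for the members (Chchd4 in GV oocytes only): CKO minus WT in GV oocytes (left), in ovulated oocytes (middle) and the difference of these effects between stages (right). Filled points passed at adjusted p under 0.05: 0 in GV, 3 in ovulated oocytes (Chchd1, Chchd2, Chchd7) and 1 for the difference (Chchd2).

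Whether the genotype effect differed between stages was tested as an interaction in a fit of all 4 groups on the 16196 genes in both tables. Chchd4 is left out here and in the stage comparison, because it passed the filter on low counts only through the GV libraries, a choice made after its values were seen. Of the other 7 members, 1, Chchd2, passed, with a log2 difference of 4.41 (SE 0.58, adjusted p = 0.00094), where 3.17% of 13199 genes passed in this direction. Among genes with under 500 coding bases, the class of Chchd2, 12.5% did. For Chchd7 the difference was 2.07 (SE 0.60, adjusted p = 0.0679), for Chchd6 1.28 (SE 0.43, adjusted p = 0.13) and for Chchd1 1.06 (SE 0.44, adjusted p = 0.237). These 3 did not pass, so a stage difference was not shown for them. Chchd3 and Chchd5 stood at -0.03 and Chchd10 at 0.50. Chchd6 passed as well with DESeq2 (adjusted p = 0.0385) and without ovulated CKO replicate 1 (adjusted p = 0.0389), as did Chchd7 (adjusted p = 0.0102 and 0.0132). Without ovulated WT replicate 1 Chchd7 passed beside Chchd2 (log2 2.55, adjusted p = 0.0484), and without ovulated WT replicate 3 Chchd6 did (log2 1.89, adjusted p = 0.0198). Without ovulated CKO replicate 2 the log2 differences were 0.96 for Chchd6 and 1.19 for Chchd7. Over single omissions their adjusted p reached 0.435 and 0.348.

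From the GV stage to ovulation, the 7 members compared fell in both genotypes, and Chchd2 kept 1.18% of its GV level in WT and 25.1% in CKO. Levels across stages are TMM CPM on the common scale of that fit. Each library gives a level relative to its other transcripts. A smaller amount of a transcript per oocyte and a change in the rest of the RNA therefore cannot be told apart. A change in how well a transcript was copied into cDNA would also alter its level, and this was not tested. Without Chchd4, all 7 members passed as lower in WT, where 36.2% of 13199 genes passed as lower and 30.3% as higher. The same 7 passed as lower in CKO, where 31.2% of genes passed as lower and 23.2% as higher. Chchd1, Chchd2, Chchd5, Chchd7 and Chchd10 have under 500 coding bases. Of all tested genes in that class, 52.5% passed as lower in WT and 40.8% in CKO. The members' log2 changes ranged from -6.41 to -1.95 in WT and from -2.21 to -0.90 in CKO, beside medians of -0.17 and -0.19 over all genes.

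Chchd2 fell from 596 ± 121 CPM in GV WT (SD, n = 4) to 7.02 ± 2.81 CPM in ovulated WT (SD, n = 3), a log2 change of -6.41 (SE 0.52, adjusted p = 2.89e-08). In CKO it fell from 617 ± 195 to 155 ± 102 CPM, a log2 change of -1.99 (SE 0.41, adjusted p = 0.000615). The stages did not overlap in either genotype. Of all 13199 genes, 37.3% were lower without overlap in WT and 30.6% in CKO. These 2 changes differ by the interaction given above.

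Chchd7 kept 5.35% of its GV level in WT, with a log2 change of -4.22 (SE 0.50, adjusted p = 1.23e-06), and 22.5% in CKO, with -2.15 (SE 0.44, adjusted p = 0.000534). Chchd6 kept 8.99% in WT (log2 -3.48, SE 0.35, adjusted p = 2e-07) and 21.8% in CKO (log2 -2.20, SE 0.32, adjusted p = 2.87e-05). The stages did not overlap for either gene, beside the 37.3% of all genes lower without overlap in WT and 30.6% in CKO. As given above, the difference between genotypes did not pass for Chchd6 or Chchd7.

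Chchd10 kept 16.2% of its GV level in WT and 22.9% in CKO. Chchd3 kept 25.8% and 25.2%, and Chchd5 kept 22.0% and 21.5%. All 3 passed as lower in each genotype, with log2 changes of -2.63 to -1.95 in WT and -2.21 to -1.99 in CKO, and their interaction terms were 0.50, -0.03 and -0.03. The Chchd5 calls were lost with the length trend removed (log2 -0.73 in WT, adjusted p = 0.179, and -1.11 in CKO, adjusted p = 0.0513).

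Chchd1 kept 25.7% in WT, with a log2 change of -1.96 (SE 0.33, adjusted p = 5.08e-05). It kept 53.6% in CKO, where the stages overlapped and the log2 change of -0.90 (SE 0.31, adjusted p = 0.0216) was lost without GV CKO replicate 2 (log2 -0.76, adjusted p = 0.0618), ovulated CKO replicate 1 (log2 -0.69, adjusted p = 0.103) or ovulated CKO replicate 3 (log2 -0.80, adjusted p = 0.0804). With the length trend removed, Chchd1 turned to 0.14 in WT (adjusted p = 0.655) and 0.21 in CKO (adjusted p = 0.519). The CKO call was also lost on log2(FPKM + 0.1) and log2(FPKM + 1) with limma (log2 -0.50 on both, adjusted p = 0.294 and 0.296), with no filter on low counts (log2 -0.76, adjusted p = 0.0635) and with the 3 GV libraries standing apart left out (log2 -0.60, adjusted p = 0.155).

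Chchd4 had estimated counts of 6, 25, 6 and 21 in the GV WT libraries and 26, 10, 19 and 16 in the GV CKO libraries, beside the counts of 0 to 11 in ovulated oocytes given above. The ovulated WT count of 11 lay within the GV WT range. No test of its change is given, since the GV libraries alone carried it past the filter.

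**Figure D4:**
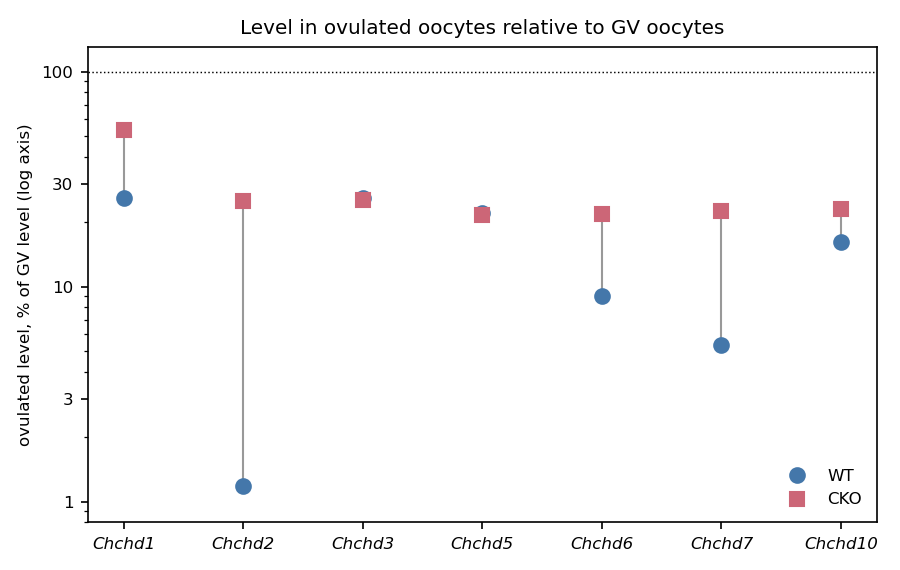
Level in ovulated oocytes as a percentage of the GV level for the 7 members other than Chchd4, on a log axis, from the fit over all 4 groups; circles are WT and squares CKO, and the dotted line marks 100%. Chchd2 stands at 1.18% in WT and 25.1% in CKO, and Chchd3 at 25.8% and 25.2%.

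Genes whose pattern was most like that of Chchd2 were ranked by Pearson's r of log2(CPM + 1) over the 14 libraries, among 7853 genes with a mean of at least 5 CPM, without predicted gene models. The libraries form 4 groups and share depth and stage, so r is a description, given with no p. Fahd2a came first (r = 0.997), followed by Cisd1 (r = 0.995), which encodes an iron-sulfur protein of the outer mitochondrial membrane. Then came Jpt1 (r = 0.995), Ergic3 (r = 0.994), a protein of the early secretory pathway, and Ninj2 (r = 0.993). Cisd1 averaged 279 CPM in GV WT, 305 in GV CKO, 15.5 in ovulated WT and 92.5 in ovulated CKO. Within the family, Chchd7 was most like Chchd2 (r = 0.957, rank 154) and Chchd10 least among the 5 other members with a mean of at least 5 CPM (r = 0.860, rank 1325).

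The 3′ end of an mRNA carries the polyadenylation signal and, in some maternal mRNAs, cytoplasmic polyadenylation elements. The letters TTTTAT or TTTTAAT, searched on the transcribed strand in the last 100 bases of the 3′ UTR, occurred in 0 of 7 members with a UTR of that length and in 19.9% of 12052 genes. AATAAA or ATTAAA occurred in the last 40 bases in 6 of 7 members and in 77.2% of 12531 genes.

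Other proteins with a CHCH fold or a pair of CX9C motifs are substrates of the same import relay and include subunits and assembly factors of the respiratory chain. In GV oocytes 0 of these 15 passed, and the smallest p belonged to Ccdc58, also named Mix23 (log2 0.42, SE 0.23, adjusted p = 0.763). In ovulated oocytes 6 of 15 passed as higher in CKO and 0 as lower, where 6.44% of all genes passed as higher and 1.4% as lower. Of genes with under 500 coding bases, 25.1% passed as higher and 1.1% as lower, and this list was not split by coding length. The list's median log2 fold was 1.04. Cox17, the copper chaperone of cytochrome c oxidase, stood at 3.49 ± 1.14 CPM in WT and rose to 49.6 ± 30.3 in CKO (SD, n = 3 each), with a log2 fold of 3.83 (SE 0.44, adjusted p = 0.000225).

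Uqcrh, the hinge subunit of complex III, was higher in ovulated CKO than in ovulated WT by a log2 of 2.67 (SE 0.32, adjusted p = 0.000257). Ccdc58 was higher by 2.44 (SE 0.41, adjusted p = 0.00241), and Cox6b1, a subunit of complex IV, by 1.82 (SE 0.30, adjusted p = 0.0023). Their groups did not overlap. The other 2 were the complex I subunits Ndufb7 and Ndufs5, which were both lost without CKO replicate 2, WT replicate 1 or WT replicate 3. With the length trend removed, 3 of 15 passed, Cox17, Uqcrh and Ccdc58. The interaction passed for 4 of 15, where 3.17% of all genes and 12.5% of those with under 500 coding bases passed in this direction. Cox17 stood at 3.56 (SE 0.48, adjusted p = 0.00099) and Uqcrh at 2.33 (SE 0.40, adjusted p = 0.00451). The terms of Cox6b1 (1.56, adjusted p = 0.0319) and Ccdc58 (1.97, adjusted p = 0.0397) did not pass without ovulated CKO replicate 2. Over single omissions the call was lost in 9 of 14 for Cox6b1 and in 11 of 14 for Ccdc58.

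From GV to ovulated, 13 of these 15 fell in WT and 10 in CKO, and 0 rose. Of all genes, 36.2% fell and 30.3% rose in WT, and 31.2% fell and 23.2% rose in CKO. Of those with under 500 coding bases, 52.5% fell and 19.5% rose in WT, and 40.8% fell and 15.4% rose in CKO. Cox17 had a log2 change of -4.36 in WT (SE 0.40, adjusted p = 8.15e-08) and of -0.79 in CKO (SE 0.33, adjusted p = 0.0507), which did not pass. The log2 change was -5.87 in WT and -3.92 in CKO for Ndufb7, -3.43 and -2.98 for Ndufa8, and -4.74 and -3.90 for Coa4, an assembly factor of cytochrome c oxidase. Cox19, another such factor, fell by 4.35 in CKO.

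Among the 8 genes of intermembrane space import, which comprise Gfer, Aifm1 and the small TIM chaperones that escort membrane proteins, 0 passed in GV oocytes. Timm8a1 had the smallest p there (log2 0.41, SE 0.17, adjusted p = 0.724). Its groups did not overlap, where 2.63% of all genes tested were higher in CKO without overlap. In ovulated oocytes 1 of 8 passed as higher, where 6.44% of all genes did, and the median log2 fold change was 1.15. This was Timm9, at 41.5 ± 5.21 CPM in WT and 219 ± 92.7 CPM in CKO (SD, n = 3 each). Its log2 fold was 2.40 (SE 0.31, adjusted p = 0.000468). Without ovulated CKO replicate 1, 5 of 8 passed. The interaction passed for 1 of 8, Timm9, where 3.17% of all genes passed in this direction. It was 2.19 (SE 0.45, adjusted p = 0.0138) and 1.84 (adjusted p = 0.0538) without ovulated CKO replicate 2.

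From GV to ovulated, 7 of the 8 import genes fell and 1 rose in WT, where 36.2% of all genes fell and 30.3% rose. In CKO 6 fell and 1 rose, where 31.2% fell and 23.2% rose. Timm8b was the gene that rose, by a log2 of 0.93 in WT (SE 0.25, adjusted p = 0.0031) and 0.62 in CKO (SE 0.25, adjusted p = 0.0414). Its CKO call was lost in 9 of 14 omissions of a single library (adjusted p up to 0.208) and with the replicate block (adjusted p = 0.178). Among those that fell, the log2 change was -3.86 in WT and -1.67 in CKO for Timm9, -4.96 and -3.39 for Timm13, -3.06 and -2.34 for Timm10b, and -2.09 and -1.79 for Timm8a1. The Timm9 call in CKO was lost with the length trend removed (log2 -0.53, adjusted p = 0.0985).

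Of the 10 other genes of MICOS and the cristae contact sites, which work with CHCHD3 and CHCHD6, 0 passed in GV oocytes. Dnajc11 had the smallest p (log2 -0.77, SE 0.55, adjusted p = 0.764). In ovulated oocytes 1 of 10 passed as higher, where 6.44% of all genes did. This was the outer-membrane metaxin gene Mtx2, at 12.5 ± 2.86 CPM in WT and 46.1 ± 20.9 CPM in CKO (SD, n = 3 each). Its log2 fold was 1.88 (SE 0.37, adjusted p = 0.00573). The median of the list was 0.39. The interaction passed for 2 of 10, beside the 3.17% of all genes, Mtx2 (1.79, adjusted p = 0.0287) and Micos13 (1.61, adjusted p = 0.0456). Neither passed without ovulated CKO replicate 2 (adjusted p = 0.0896 and 0.136) or with the length trend removed. Over single omissions the call was lost in 7 of 14 for Mtx2 and in 11 of 14 for Micos13.

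In both genotypes 6 of these 10 fell from GV to ovulated and 2 rose, where 36.2% of all genes fell and 30.3% rose in WT and 31.2% fell and 23.2% rose in CKO. Opa1, the inner-membrane fusion GTPase, rose by a log2 of 0.95 in WT and 0.87 in CKO, and Micos10, a core MICOS subunit, by 0.80 and 0.72. With the length trend removed, both Opa1 calls were lost (log2 0.16 in WT, adjusted p = 0.481, and 0.28 in CKO, adjusted p = 0.244). Without ovulated CKO replicate 3 the CKO calls of Opa1 (adjusted p = 0.0596) and Micos10 (adjusted p = 0.0734) were lost, as was that of Micos10 with the replicate block (adjusted p = 0.0853). Among those that fell, the log2 change was -4.97 in WT and -3.91 in CKO for Mtx1, -4.36 and -2.75 for Micos13, -3.29 and -3.21 for Apoo, and -5.44 and -3.90 for Dnajc11.

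Genes of proteins reported to bind or act with CHCHD2 or CHCHD10, with both Cox4 isoforms, numbered 13. In GV oocytes 0 passed, and Bcl2l1, an anti-apoptotic gene, had the smallest p (log2 -0.91, SE 0.36, adjusted p = 0.702). In ovulated oocytes 1 of 13 passed as higher, close to the 6.44% of all genes. This was Cox4i1, a subunit of cytochrome c oxidase, at 4.37 ± 1.39 CPM in WT and 26.0 ± 13.0 CPM in CKO (SD, n = 3 each). Its log2 fold was 2.57 (SE 0.41, adjusted p = 0.00178). The median of this list was -0.28. The interaction passed for 1 of 13, Cox4i1, at 2.45 (SE 0.46, adjusted p = 0.00775), beside the 3.17% of all genes.

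In WT, 8 of the 13 fell from GV to ovulated and 3 rose, where 36.2% of all genes fell and 30.3% rose. In CKO 7 fell and 2 rose, where 31.2% fell and 23.2% rose. The log2 change of Cox4i1 was -5.91 in WT and -3.47 in CKO. Those of the prohibitin genes Phb and Phb2 were -2.39 and -2.27 in WT and -2.46 and -2.15 in CKO. Rbpj, whose protein acts in Notch signalling, rose by 1.81 in WT and 1.35 in CKO, and Stoml2, an inner-membrane scaffold gene, by 1.08 and 0.70. Bcl2l1 fell by 2.26 in WT. The Stoml2 call in CKO was lost in 7 of 14 single omissions (adjusted p up to 0.121) and with the 3 GV libraries standing apart left out (log2 0.42, adjusted p = 0.148). Ghitm rose by 0.65 in WT, a call lost in 5 of 14 single omissions (adjusted p up to 0.138), with the 10 CPM minimum (adjusted p = 0.099) and without ovulated WT replicate 3 and CKO replicate 2 together (adjusted p = 0.124). Oma1, an inner-membrane protease gene, passed as lower in both genotypes. Its log2 fall in CKO was 0.95, and this change was -0.064 (adjusted p = 0.827) with the length trend removed. The Oma1 call in CKO was also lost with limma on both FPKM scales, the replicate block and the 2 ovulated libraries left out (adjusted p from 0.0519 to 0.161).

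**Figure D5:**
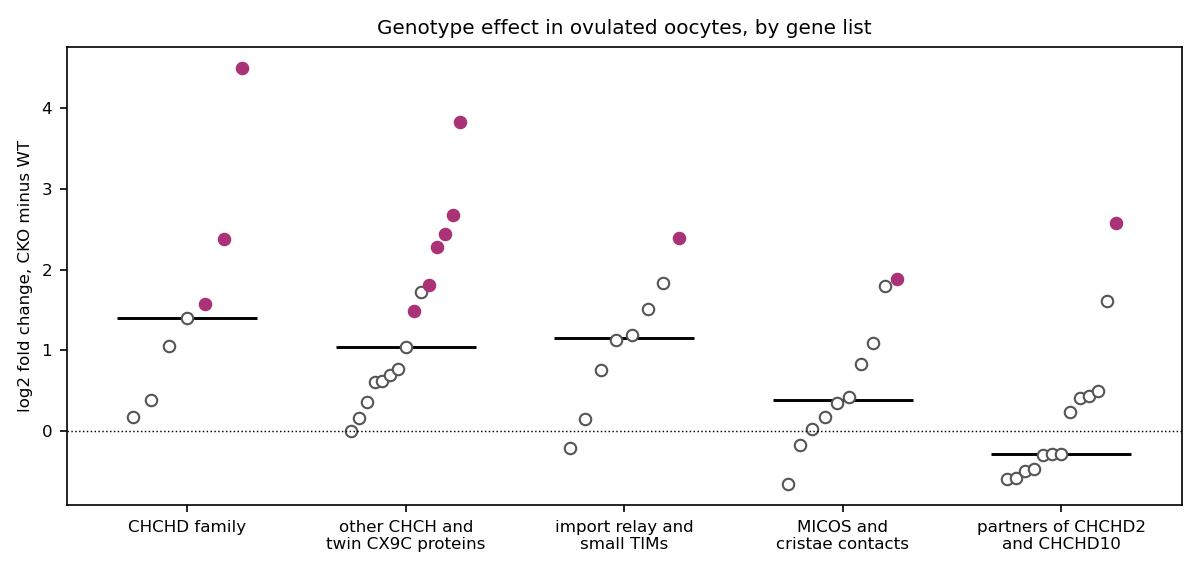
Log2 fold change, CKO minus WT, in ovulated oocytes for each tested gene of the family and of 4 related lists; filled points passed at adjusted p under 0.05, the bar is the list's median and the dotted line the median of all genes. Filled points number 3 in the CHCHD family, 6 among other CHCH and twin CX9C proteins and 1 in each of the remaining lists.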

How the data were processed

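Oocyte RNA was made into cDNA with SMART-SeqII and preamplified by PCR, per the labels' protocols. The authors deposited, per stage, estimated counts per gene without normalisation, partly fractional (17.2% to 19.2% of values above 0), and FPKM, per the file headers. Per the submitters' processing notes, reads were placed on mm10; aligner and counter are not stated in the sources used here. Genome coordinates and transcripts were taken from GRCm38 (GENCODE), and 18456 of 18507 gene identifiers matched the RefSeq table.

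Counts were rounded and fitted per stage with edgeR 4.0.16 in R 4.3.3 (filterByExpr, TMM, robust quasi-likelihood F test), and all 4 groups jointly on shared genes. P-values were Benjamini-Hochberg adjusted over all genes tested and called under 0.05; SE derives from the F statistic. The fits were tested on simulated data. Alternatives were RLE size factors, a 10 CPM mean minimum, no filter, DESeq2 1.42.0, limma 3.58.1 on log2(FPKM + 1) and log2(FPKM + 0.1), a replicate block, removal of the length trend, and libraries left out singly or as those standing apart.

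Members, lists and tests were chosen with earlier results of these data known. Named genes were Mff, all members, up to 4 called genes per list, direction and comparison with the smallest p (otherwise the 1 with the smallest p), and the 5 genes most like Chchd2; Phkg1 and Mmp11 were added as overlapping neighbours, and Ndufb7 and Ndufs5 in ovulated oocytes to complete a count, after their values were seen.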

Additional observations from a re-analysis of the deposited data

Results flagged for a closer look

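The genotype effect on Chchd2 differed between stages by the interaction test. The log2 fold change, CKO minus WT, was 0.02 in GV oocytes and 4.50 in ovulated oocytes, and the log2 difference was 4.41 (SE 0.58, edgeR adjusted p = 0.00094). It was 3.74 to 4.75 when each library was left out in turn.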

How the results depend on the processing

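The count of members called in ovulated oocytes, 3 as reported, was 1 (Chchd2) with the gene length trend removed and without ovulated WT replicate 3 and CKO replicate 2 together, and 1 to 4 when single libraries were left out. The interaction count, 1 as reported, was 3 with DESeq2 and 2 with RLE factors, with a mean of at least 10 CPM or without the 2 ovulated libraries, and 1 to 3 over single omissions. Chchd4 is left out of the stage counts, as above. The fall from GV in CKO was called for all 7 other members. The calls of Chchd1 and Chchd5 were lost with the length trend removed. With the 10 CPM minimum only 5 members were tested, and all 5 were called. Over single omissions only the call of Chchd1 was lost, in 3 of 14. In WT the fall was called for the same 7, and for 5 with the length trend removed (without Chchd1 and Chchd5). With the 10 CPM minimum it was called for all 5 members tested. Each of the 7 WT calls held over single omissions. The GV count stayed at 0 in every setting run.

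Signs turned for small effects. For CKO against WT in GV oocytes, Chchd2 was -0.12 with the length trend removed, -0.0013 with the replicate block and -0.11 to 0.22 over single omissions, Chchd4 -0.050 to 0.58 over omissions, and Chchd5 -0.043 without the 3 GV libraries apart and -0.10 to 0.32. In ovulated oocytes Chchd5 was -0.23 with the length trend removed, -0.33 without the 2 libraries and -0.34 to 0.68. The Chchd3 interaction was 0.041 with DESeq2, 0.040 with RLE, 0.037 with no filter, 0.076 and 0.051 on log2(FPKM + 0.1) and log2(FPKM + 1), 0.13 with the 10 CPM minimum and -0.16 to 0.10. That of Chchd5 was 0.037 with DESeq2, 0.035 with RLE, 0.17 without the GV libraries apart, and 0.11 and 0.00066 on the FPKM scales. It was 0.054 with no filter, 0.032 with the block and -0.56 to 0.52 over omissions. The Chchd4 interaction, left out above, ran from -1.54 to 4.34 over omissions. With as few as 0 counts in an ovulated library, this range cannot decide its sign or size, and no conclusion is drawn from it. With the length trend removed, Chchd1 changed from GV by 0.14 in WT and 0.21 in CKO; the cause was not tested.

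Same-numbered libraries deviated together in some pairs only (correlations -0.338 to 0.447 between genotypes in GV and 0.023 to 0.201 in ovulated oocytes). With so few libraries these values cannot decide whether the numbers pair the samples, and pairing is not stated. With the block, Chchd6 passed in ovulated oocytes (log2 1.46, adjusted p = 0.00934). Removal of the length trend moved the median change of all genes from GV to ovulated by 0.29 in CKO and 0.30 in WT. With limma on log2(FPKM + 0.1) it moved by 0.44 in CKO and 0.33 in WT. Levels under 1 CPM (Chchd4, Chchd5 in ovulated oocytes) rest on few counts.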
